A study of Rattus norvegicus with 20 samples.

Results

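The 10 genes described here are the immediate-early response genes Fos, Fosb, Jun, Junb, Egr1, Ier2, Ier3, Btg2, Zfp36 and Atf3, followed through the livers of 20 male rats. They were chosen by gene name out of the 32883 genes of the deposited table, and each name matched 1 identifier. RNA was sequenced from 1 liver per rat, with 5 rats in each of 4 groups, and rats were assigned to the groups at random per the labels. KYDS+BGZ_L rats received hydrocortisone (25 mg/kg) together with the powder of BGZ_L (0.9 g/kg), and KYDS rats received only the hydrocortisone (25 mg/kg). BGZ_L rats received only the powder (0.9 g/kg), and CON rats received 0.5% CMC-Na, a cellulose-based vehicle. The labels do not spell out BGZ_L. The study's title, however, names Psoraleae Fructus, a drug of Chinese medicine, as the treatment of rats with kidney-yang deficiency syndrome. Hydrocortisone, a glucocorticoid, is the agent given to the rats that the labels call KYDS. The labels used here give no strain, age, treatment length or time of tissue collection.

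Immediate-early genes are switched on by signals that reach a cell, without the need for new protein synthesis. Growth factors, stress and injury act on them through MAP kinases, which activate factors already bound at their promoters, among them serum response factor at CArG boxes and CREB at cAMP response elements. Their transcripts are short-lived, and several encode transcription factors that pass the signal on to later genes. In liver they are best known for their fast rise after partial hepatectomy, and they are also known to respond to handling and tissue collection. Among the 10, Fos, Fosb, Jun, Junb and Atf3 encode subunits or partners of the AP-1 transcription factor, and Egr1 encodes a zinc finger factor. Ier2 encodes a nuclear protein linked to transcription, Ier3 a regulator of survival signalling, Btg2 an antiproliferative cofactor of mRNA deadenylation, and Zfp36 tristetraprolin, a protein that binds AU-rich elements and promotes mRNA decay.

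Values below are TPM, a length-scaled abundance, after a scaling between libraries, and they can be compared between genes as well as between livers. The read depth behind them is unknown, since TPM keeps no totals, so a gene listed at 0 carries no upper limit. The libraries differed in makeup along with the groups. The 13 mitochondrially encoded genes held 26.6% to 70.2% of TPM in KYDS+BGZ_L libraries and 19.2% to 68.9% in KYDS libraries. They held 39.6% to 81.9% in BGZ_L libraries and 65.6% to 90.1% in CON libraries. Scaling factors ran from 0.962 to 1.79 in KYDS+BGZ_L, from 1.31 to 2.01 in KYDS, from 0.345 to 1.35 in BGZ_L and from 0.231 to 1.26 in CON. All 7 hepatocyte markers read, among them Alb and Ttr, were above 0 in all 20 libraries, as the liver label implies. In bulk liver RNA, fewer cells that carry a transcript and less of it per cell cannot be told apart.

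Of the 10 genes, Junb and Ier2 were the most abundant and Fosb was close to 0. Over the 20 libraries the median was 21.6 scaled TPM for Junb, 20.04 for Ier2, 13.7 for Ier3, 7.77 for Zfp36, 5.73 for Jun and 4.19 for Egr1. It was 2.71 for Btg2, 1.03 for Atf3, 0.627 for Fos and 0.0292 for Fosb. In CON livers, Junb averaged 19.3 ± 22.9, Ier2 19.3 ± 14.2 and Ier3 14.0 ± 10.1 scaled TPM (SD, n = 5 each), so these neighbours in the order did not differ beyond their spread. Zfp36 averaged 8.78 ± 2.59, Jun 4.96 ± 4.19, Egr1 3.75 ± 2.78 and Btg2 2.71 ± 1.03 scaled TPM in CON livers. Among these 4, too, neighbours differed by less than the larger of their SDs, which are spreads between livers. Within livers, Zfp36 exceeded Jun in every CON liver. Jun and Egr1 changed order between CON livers, as did Egr1 and Btg2. A filter on low values asked that 5 or more libraries reach 0.5 scaled TPM, and it kept 9 of the 10 members and 11869 genes in all. Fosb did not pass it, as no library reached 0.5.

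**Figure D1:**
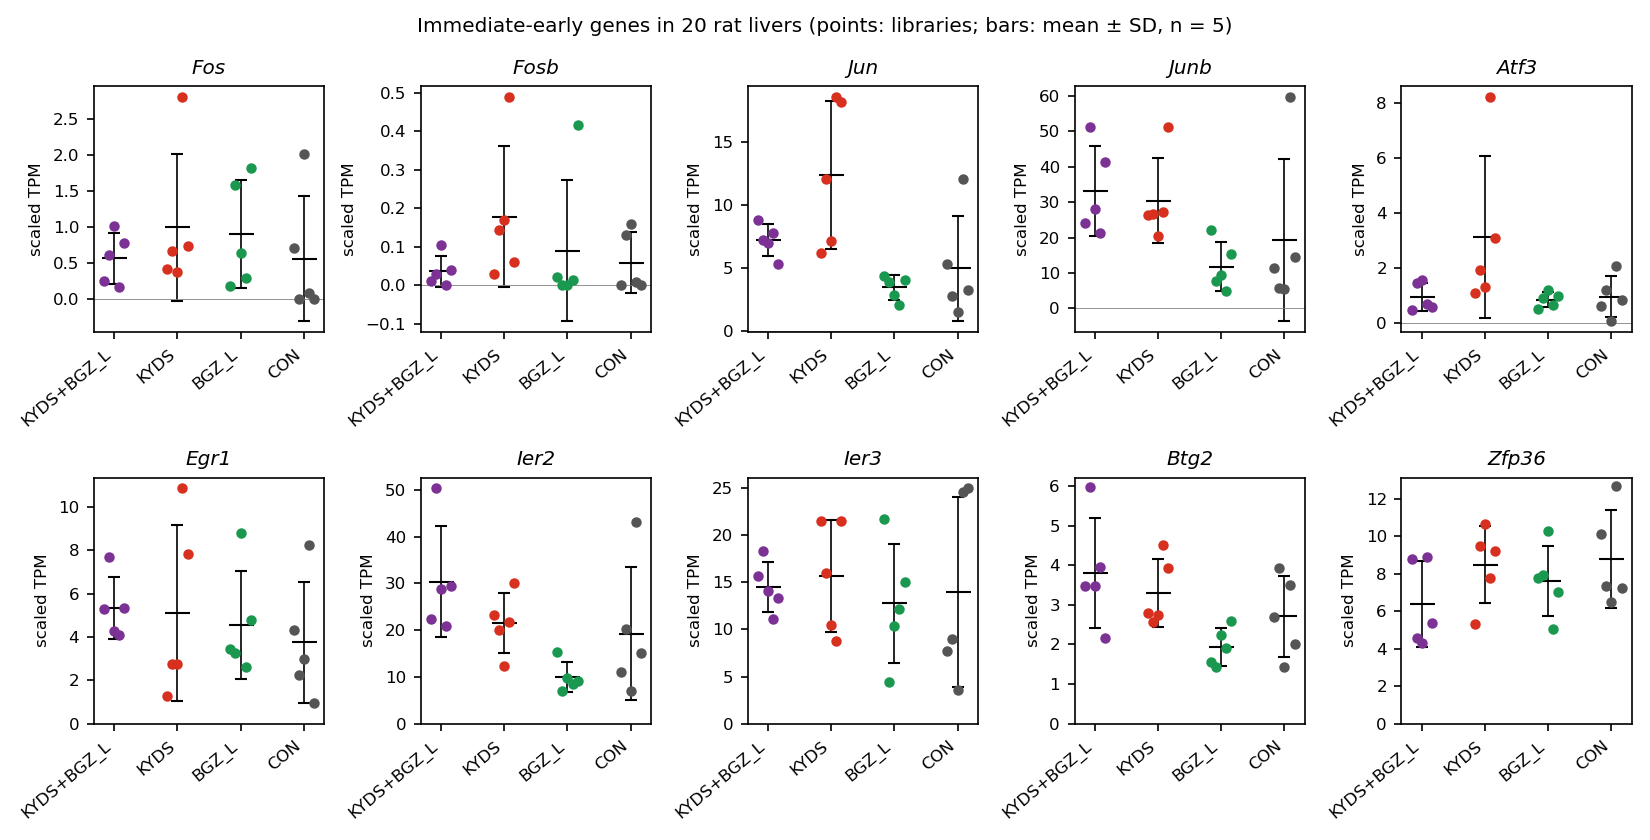
Scaled TPM (y axes) of the 10 genes in each of 20 livers (points), with the mean and SD of each group of 5 (bars), for KYDS+BGZ_L, KYDS, BGZ_L and CON from left to right. The CON 4 library stands above the other CON libraries for Junb, at 59.7 against at most 14.4 scaled TPM, and for Jun, at 12.03 against at most 5.32 scaled TPM.

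Promoters are shown for Ier2, Junb and Btg2, the members that passed between the 2 groups given the powder. Those of Egr1 and Zfp36 are also shown, since each holds a match to the CArG box, the motif of serum response factor. RefSeq promoter sequences of the rat build GRCr8, running from 250 bases before to 50 bases after the annotated start of the gene, matched 6 of the 10 members, and Fos, Jun, Atf3 and Ier3 had none. The Fosb window did not sit at the start that RefSeq gives the gene and was left out, which leaves 5 promoters. Each is printed 5′ to 3′ on the strand of the gene, with capitals for matches to a CArG box, the full cAMP response element TGACGTCA, the ETS core CCGGAA and the TATA box TATAAA. Ier2 lies at chr19:40399123-40399422 on the plus strand and Junb at chr19:40080876-40081175 on the plus strand. Btg2 lies at chr13:48087641-48087940 on the minus strand, Egr1 at chr18:26736828-26737127 on the plus strand and Zfp36 at chr1:92799059-92799358 on the minus strand.
Ier2: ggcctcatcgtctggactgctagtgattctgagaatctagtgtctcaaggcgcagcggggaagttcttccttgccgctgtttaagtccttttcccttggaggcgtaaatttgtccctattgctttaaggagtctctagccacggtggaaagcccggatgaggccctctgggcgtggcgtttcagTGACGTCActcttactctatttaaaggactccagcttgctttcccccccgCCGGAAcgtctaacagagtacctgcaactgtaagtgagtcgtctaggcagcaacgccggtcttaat
Junb: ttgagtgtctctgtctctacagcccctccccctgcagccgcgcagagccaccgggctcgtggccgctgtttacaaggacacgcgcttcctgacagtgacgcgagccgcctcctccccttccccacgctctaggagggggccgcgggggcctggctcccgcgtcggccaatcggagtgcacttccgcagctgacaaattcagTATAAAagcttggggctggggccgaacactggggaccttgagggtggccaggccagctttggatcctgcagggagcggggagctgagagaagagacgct
Btg2: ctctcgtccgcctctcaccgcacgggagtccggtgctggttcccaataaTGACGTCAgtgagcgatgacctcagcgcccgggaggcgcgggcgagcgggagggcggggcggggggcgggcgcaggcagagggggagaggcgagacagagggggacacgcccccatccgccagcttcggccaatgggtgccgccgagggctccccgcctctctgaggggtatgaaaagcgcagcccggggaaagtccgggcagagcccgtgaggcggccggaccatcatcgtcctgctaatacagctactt
Egr1: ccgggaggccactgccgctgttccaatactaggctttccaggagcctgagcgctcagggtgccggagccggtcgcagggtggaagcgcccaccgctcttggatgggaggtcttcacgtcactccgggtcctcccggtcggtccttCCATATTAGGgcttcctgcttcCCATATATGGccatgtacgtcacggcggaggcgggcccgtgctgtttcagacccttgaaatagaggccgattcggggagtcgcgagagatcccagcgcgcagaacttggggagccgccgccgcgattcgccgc
Zfp36: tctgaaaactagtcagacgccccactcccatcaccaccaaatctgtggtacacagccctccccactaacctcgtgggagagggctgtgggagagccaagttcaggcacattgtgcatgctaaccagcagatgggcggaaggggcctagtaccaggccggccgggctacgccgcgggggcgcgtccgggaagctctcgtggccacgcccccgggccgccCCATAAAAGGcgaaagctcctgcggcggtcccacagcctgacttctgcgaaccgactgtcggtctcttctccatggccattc

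Ier2 and Btg2 each hold a full cAMP response element TGACGTCA, at bases -66 to -59 of Ier2 and -201 to -194 of Btg2, a motif found in 1.83% of the 33469 rat promoters of this length. Ier2 also holds the ETS core CCGGAA at -16 to -11, which 15.0% of all promoters hold. Egr1 holds 2 CArG boxes, at -105 to -96 and -83 to -74, and Zfp36 holds 1, at -32 to -23. A CArG box, which is CC, 6 bases of A or T and GG, stands in 1.64% of all promoters. Junb holds TATAAA at -49 to -44, as do 14.2% of all promoters, and the short element TGACG, not in capitals, at -155 to -151. The short element stands in 21.2% of all promoters. It also lies inside the full element on both strands, and on the minus strand of Egr1 at -135 to -131 and -66 to -62. None of the 5 promoters held the AP-1 site TGAGTCA (4.63% of all promoters), the EGR site GCGTGGGCG (0.544%) or the glucocorticoid receptor hexamer AGAACA (20.7%), searched on both strands. A match is a string of letters and was not tested for binding.

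**Figure D2:**
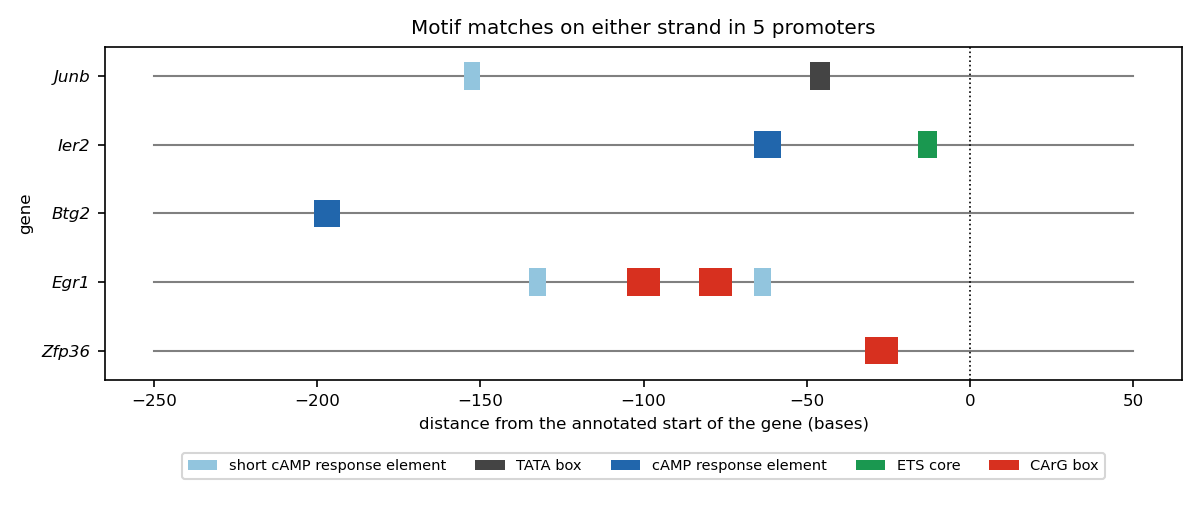
Matches to motifs on either strand (coloured blocks) by distance in bases from the annotated start of the gene (dotted line) in the 5 promoters read. CArG boxes are seen in Egr1 and Zfp36, and full cAMP response elements in Ier2 and Btg2. A short element inside a full one is hidden by it.

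The first question is how these genes changed under hydrocortisone without the powder, in KYDS against CON. Jun was the only member that passed the test, about 2.64-fold higher in KYDS livers. Junb and Atf3 had fold changes nearly as large but did not pass, and the other 6 members tested had log2 fold changes of at most 0.62. Of the 9 members tested, 1 was higher and 0 were lower, against 6.27% of all 11869 genes called in either direction (3.25% higher and 3.02% lower). A count of 1 is near that share. For 0 of the 9 did the groups fail to overlap, against 3.32% of all genes with every KYDS liver higher and 3.17% with every KYDS liver lower. The median log2 fold change of the 9 was 0.41, and that of all genes tested was 0.05.

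Jun encodes the founding subunit of AP-1. It measured 6.13, 12.1, 7.11, 18.6 and 18.1 scaled TPM in KYDS libraries 1 to 5, against 5.32, 2.72, 1.49, 12.03 and 3.23 scaled TPM in CON libraries 1 to 5. In 4 of the 5 CON livers it lay below the lowest KYDS liver, and CON 4 alone reached into the KYDS range. The log2 fold change was 1.40 ± 0.40 (SE; limma, adjusted p = 0.0437). This call was lost in 11 of the 20 fits that left out 1 library, with the highest adjusted p of 0.113 without CON 2 and the lowest of 0.00736 without CON 4. It was also lost, at a fold change of much the same size, when nuclear genes alone were rescaled (1.57, limma, adjusted p = 0.21) and with the log2 nuclear to mitochondrial TPM ratio in the model (1.25, adjusted p = 0.599).

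Junb, an AP-1 subunit that in many settings counters Jun, measured 26.4, 26.7, 20.3, 27.1 and 51.3 scaled TPM in KYDS libraries 1 to 5, against 11.3, 5.70, 5.41, 59.7 and 14.4 scaled TPM in CON libraries 1 to 5. Here again 4 CON livers lay below all KYDS livers, while CON 4 was the highest of the 10. The log2 fold change was 1.16 ± 0.52 (limma, adjusted p = 0.174), and without CON 4 the adjusted p was 0.0188. Atf3, a stress-induced partner of AP-1, measured 1.09, 1.91, 1.28, 8.20 and 3.07 scaled TPM in KYDS livers, against 0.618, 1.17, 0.0579, 2.06 and 0.818 scaled TPM in CON livers. KYDS 4 and KYDS 5 exceeded every CON liver, and 3 CON livers lay below every KYDS liver. Its log2 fold change was 1.18 ± 0.42 (limma, adjusted p = 0.0947), and without CON 4 the adjusted p was 0.0424.

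Fos, the partner that makes AP-1 a strong activator, measured 0.422, 0.666, 0.375, 2.80 and 0.732 scaled TPM in KYDS livers. In CON livers it measured 0.715, 0, 2.01, 0.0871 and 0 scaled TPM, being listed at 0 in CON 2 and CON 5. The groups overlapped, with a log2 fold change of 0.62 ± 0.47 (limma, adjusted p = 0.439). Fosb, its close relative, ran from 0.0289 to 0.488 scaled TPM in KYDS livers and from 0 to 0.159 scaled TPM in CON livers, where 2 libraries listed it at 0.

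Among the members outside AP-1, Egr1 measured 1.26, 2.77, 2.77, 10.9 and 7.84 scaled TPM in KYDS livers, against 4.30, 2.25, 2.99, 8.23 and 0.963 scaled TPM in CON livers. Ier2 measured 23.3, 19.9, 12.3, 21.7 and 30.1 scaled TPM in KYDS livers, against 11.04, 20.1, 6.94, 43.1 and 15.1 scaled TPM in CON livers. For both genes the ranges overlapped, and CON 4 was the highest CON liver. The log2 fold changes were 0.32 ± 0.48 for Egr1 and 0.36 ± 0.38 for Ier2 (limma, adjusted p = 0.72 and 0.589).

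Ier3 ran from 8.81 to 21.5 scaled TPM in KYDS livers, with a median of 16.02, and from 3.53 to 25.0 scaled TPM in CON livers, with a median of 8.94. Btg2 ran from 2.57 to 4.51 scaled TPM in KYDS livers and from 1.43 to 3.93 scaled TPM in CON livers. Zfp36 ran from 5.29 to 10.7 scaled TPM in KYDS livers and from 6.48 to 12.7 scaled TPM in CON livers. None of the 3 separated the groups. The log2 fold change of Zfp36 was -0.04, with a 95% interval of 0.56 on either side, but without any scaling between libraries it was 1.22. For Ier3 it was 0.41 and for Btg2 0.28, with 95% intervals of 0.97 and 0.56 on either side.

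The second question is how they changed under hydrocortisone in rats that all received the powder, in KYDS+BGZ_L against BGZ_L. Ier2, Junb and Btg2 passed the test and were 2.90-fold, 2.94-fold and 1.72-fold higher in KYDS+BGZ_L livers. Jun also lay higher in every KYDS+BGZ_L liver than in any BGZ_L liver without passing, and Atf3 did not differ beyond its error. Of the 9 members tested, 3 were higher and 0 were lower, against 17.4% of all genes called (8.82% higher and 8.55% lower). The median log2 fold change of the 9 was 0.32, and that of all genes tested was 0.06. No library of this comparison enters KYDS against CON, but both rest on the same scaling and the same estimate of spread.

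Ier2 measured 22.4, 50.4, 28.8, 20.8 and 29.4 scaled TPM in KYDS+BGZ_L libraries 1 to 5, against 15.4, 7.0, 9.82, 8.46 and 9.05 scaled TPM in BGZ_L libraries 1 to 5. The groups did not overlap. Of the 9 members this held for 2, Ier2 and Jun, both higher, against 7.2% of all genes with every KYDS+BGZ_L liver higher and 5.97% with every one lower. Its log2 fold change was 1.54 ± 0.38 (limma, adjusted p = 0.0105), and it passed in all 20 fits that left out 1 library, with a highest adjusted p of 0.0288 without BGZ_L 2. It was 1.65 with an adjusted p of 0.0632 (limma) when nuclear genes alone were rescaled.

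Junb measured 24.1, 51.2, 28.1, 21.2 and 41.3 scaled TPM in KYDS+BGZ_L livers, against 22.04, 7.58, 9.38, 4.76 and 15.3 scaled TPM in BGZ_L livers. Only BGZ_L 1 reached into the KYDS+BGZ_L range, above KYDS+BGZ_L 4. Junb had a log2 fold change of 1.56 ± 0.52 (limma, adjusted p = 0.043). The call was lost in 10 of 20 fits that left out 1 library, with the highest adjusted p of 0.112 without BGZ_L 4, and with the same ratio in the model, at a fold change of 1.41 (0.16).

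Btg2 measured 3.46, 5.99, 3.48, 3.96 and 2.16 scaled TPM in KYDS+BGZ_L livers, against 1.55, 1.44, 2.23, 1.92 and 2.59 scaled TPM in BGZ_L livers. KYDS+BGZ_L 5 was the liver that fell into the BGZ_L range. Btg2 had a log2 fold change of 0.78 ± 0.26 (limma, adjusted p = 0.0455), and it was lost in 11 of 20 fits that left out 1 library, with the highest adjusted p of 0.109 without KYDS+BGZ_L 2. It was also lost under median-ratio scaling (limma, adjusted p = 0.0646).

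Jun measured 8.77, 7.17, 6.96, 7.77 and 5.28 scaled TPM in KYDS+BGZ_L livers, against 4.37, 3.87, 2.84, 2.04 and 4.04 scaled TPM in BGZ_L livers. The groups did not overlap, and both spread less than KYDS and CON did. Jun had a log2 fold change of 0.99 ± 0.40 (limma, adjusted p = 0.0893). With only the 2 groups in the fit, it was 1.01 with an adjusted p of 0.015, and without CON 4 the adjusted p was 0.043.

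Atf3 ran from 0.475 to 1.55 scaled TPM in KYDS+BGZ_L livers and from 0.495 to 1.19 scaled TPM in BGZ_L livers, with a log2 fold change of 0.07 ± 0.42 (limma, adjusted p = 0.932). Egr1 ran from 4.08 to 7.66 scaled TPM in KYDS+BGZ_L livers and from 2.61 to 8.80 scaled TPM in BGZ_L livers. Ier3 ran from 11.1 to 18.3 scaled TPM in KYDS+BGZ_L livers and from 4.46 to 21.7 scaled TPM in BGZ_L livers. For each of these the groups overlapped. Their log2 fold changes were 0.29 ± 0.48 for Egr1 and 0.32 ± 0.46 for Ier3.

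Fos measured 0.251, 0.617, 1.02, 0.169 and 0.773 scaled TPM in KYDS+BGZ_L livers, against 0.186, 1.58, 0.637, 0.297 and 1.81 scaled TPM in BGZ_L livers. Fosb was listed at 0 in 1 KYDS+BGZ_L and 2 BGZ_L libraries, and its highest values were 0.104 scaled TPM in KYDS+BGZ_L and 0.417 scaled TPM in BGZ_L. Zfp36 measured 8.78, 4.56, 4.28, 8.90 and 5.34 scaled TPM in KYDS+BGZ_L livers, against 7.76, 7.93, 10.3, 5.05 and 7.04 scaled TPM in BGZ_L livers. In none of the 3 did the groups separate. The log2 fold change was -0.29 ± 0.47 for Fos and -0.27 ± 0.26 for Zfp36 (limma, adjusted p = 0.702 and 0.509), and both were above 0 without any scaling, at 0.04 and 0.52.

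**Figure D3:**
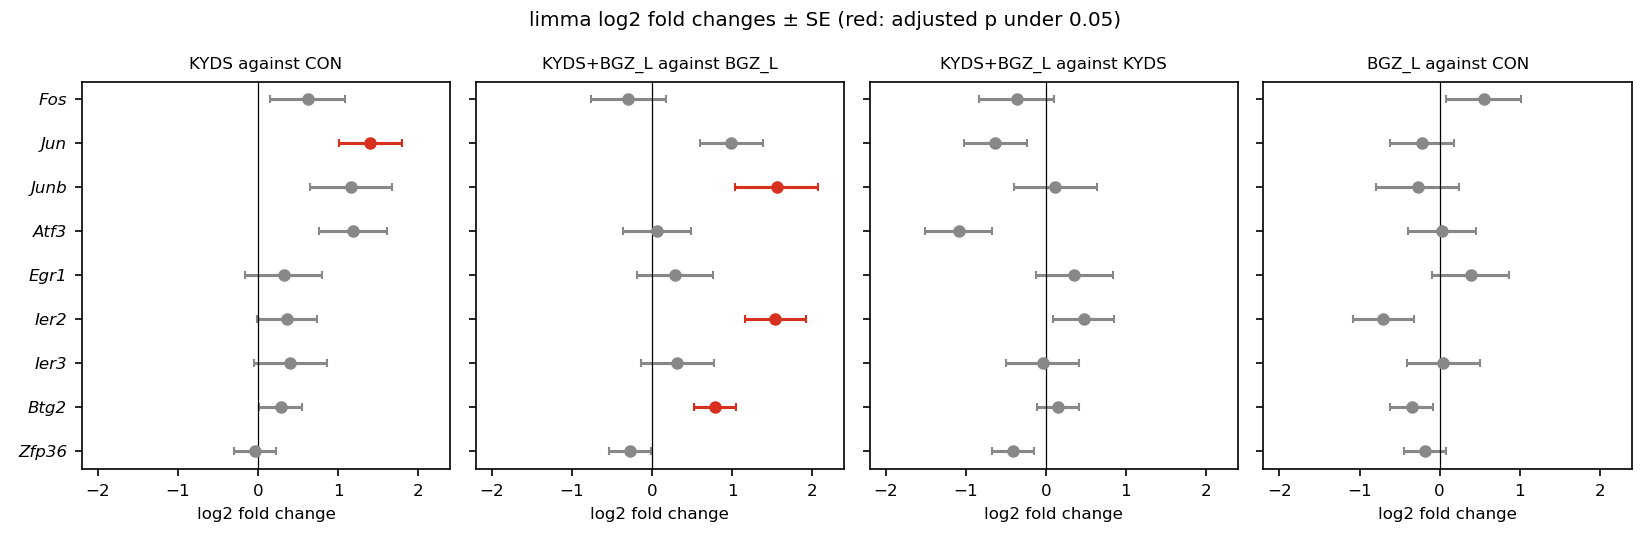
Log2 fold changes (x axes) with SE from limma for the 9 members tested, in 4 comparisons with the group named first over the group named second. Members with an adjusted p under 0.05 are red, namely Jun in KYDS against CON and Junb, Ier2 and Btg2 in KYDS+BGZ_L against BGZ_L.

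The third question is how they changed under the powder in rats that all received hydrocortisone, in KYDS+BGZ_L against KYDS. No member passed, and Atf3 had the largest fold change. Of the 9 members tested, 0 were higher and 0 were lower, where 0.126% of all genes were called (0.059% higher and 0.0674% lower). An unadjusted p under 0.05 was held by 1 member and by 405 of all 11869 genes. The groups overlapped for all 9, against 0.388% of all genes with every KYDS+BGZ_L liver higher and 0.977% with every one lower. The Atf3 values given above have a median of 0.67 scaled TPM in KYDS+BGZ_L livers and of 1.91 scaled TPM in KYDS livers. In KYDS+BGZ_L, 3 livers lay below every KYDS liver, and 3 KYDS livers lay above every KYDS+BGZ_L liver. The log2 fold change was -1.09 ± 0.42 (limma, unadjusted p = 0.0179, adjusted p = 1).

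Jun had a log2 fold change of -0.63 ± 0.40, Zfp36 of -0.41 ± 0.26 and Fos of -0.36 ± 0.47 in KYDS+BGZ_L against KYDS, with unadjusted limma p-values of 0.128, 0.131 and 0.449. For Jun, 3 KYDS livers exceeded every KYDS+BGZ_L liver. Ier2 had 0.47 ± 0.38, Egr1 0.35 ± 0.48, Btg2 0.15 ± 0.26, Junb 0.12 ± 0.52 and Ier3 -0.04 ± 0.46 on the same scale. Without scaling, or with 1 library left out, the sign of Junb, Egr1, Ier3 or Btg2 could turn, so no direction is given for them. The 95% intervals ran from 0.56 on either side for Zfp36 and Btg2 to 1.09 for Junb, so a change of Junb by 1 log2 unit cannot be told from none at this spread.

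The last pair, BGZ_L against CON, shows the powder alone. Of the 9 members tested, 0 were called by limma and 0 had an unadjusted p under 0.05. Of all genes 0% were called, while 715 of 11869 had an unadjusted p under 0.05. For 0 of the 9 were the groups apart, against 0.278% of all genes with every BGZ_L liver higher and 0.329% with every one lower. Ier2 had the largest difference, with a log2 fold change of -0.70 ± 0.38 (unadjusted p = 0.0789, adjusted p = 0.827), and 2 CON livers exceeded every BGZ_L liver. Fos followed with 0.55 ± 0.47, Egr1 with 0.38 ± 0.48 and Btg2 with -0.35 ± 0.26, where 3 CON livers exceeded every BGZ_L liver. The other 5 lay between -0.28 for Junb and 0.05 for Ier3. This comparison shares its CON libraries with KYDS against CON.

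An interaction term tested whether the 2 hydrocortisone differences differ from each other. Of the 9 members, 0 passed (limma), where 0.0253% of all genes were called (0.00843% higher and 0.0169% lower). An unadjusted p under 0.05 was held by 1 member and by 447 of all 11869 genes. Ier2 had a log2 difference of 1.18 ± 0.54 (unadjusted p = 0.0407, adjusted p = 0.999). Its 2 hydrocortisone fold changes were 1.54 with the powder and 0.36 without it. Atf3 had a difference of -1.12 ± 0.60 (unadjusted p = 0.0755), from 0.07 with the powder and 1.18 without it. For Jun the difference was -0.41 ± 0.56 and for Junb 0.40 ± 0.73. That Jun passed in the rats without the powder and Junb in those with it was thus not shown to be a difference between the 2 pairs of groups.

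The 10 genes did not vary as 1 block across livers. Over the 36 pairs of the 9 tested members, Pearson's r of log2 values across 20 libraries ran from -0.54 to 0.85, with a median of 0.37, and after centring in each group from -0.63 to 0.79, with a median of 0.38. These correlations describe libraries that share scaling factors and treatment, and no p is attached to them. The closest pair was Junb and Ier2, both on chromosome 19 in GRCr8, with r = 0.85, and 0.79 after centring. Jun and Junb followed with 0.82 and 0.73 after centring, then Ier2 and Btg2 with 0.75 and 0.56, and Jun and Atf3 with 0.75 and 0.67.

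Fos and Zfp36 had the lowest median correlations with the other members. The median r of Fos with the other 8 members was -0.08, and its lowest was with Ier3, at -0.54, and -0.63 after centring. Zfp36 had a median r of 0.02, and 0.12 after centring, but its centred r was 0.56 with Jun and 0.43 with Egr1. Jun, Ier2, Junb and Btg2 had medians of 0.57, 0.54, 0.52 and 0.51. Fos also had the most negative correlation of centred values with the log2 nuclear to mitochondrial ratio of the library (r = -0.52, n = 20), followed by Atf3 at -0.50 and Btg2 at -0.38. Zfp36 had 0.43, Junb 0.15, Jun 0.11 and Ier2 -0.13. Without centring, Jun had 0.52 and Junb 0.49, the highest of the members, and Fos had -0.23.

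**Figure D4:**
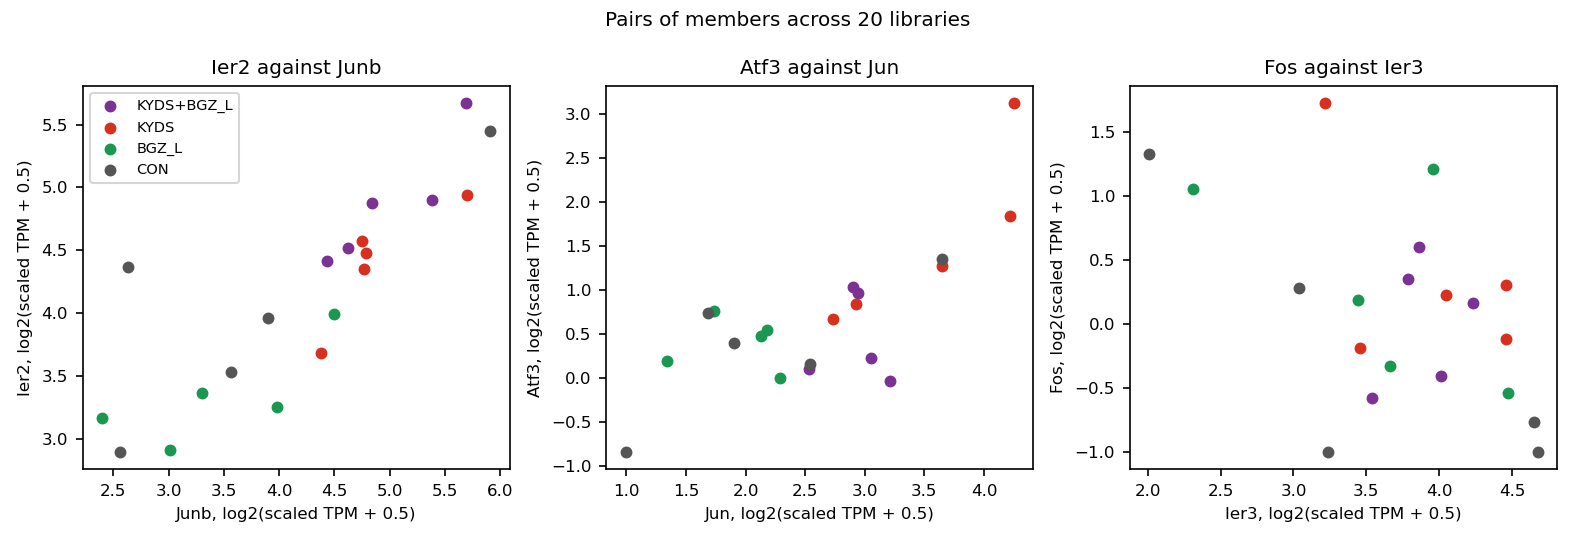
Log2 of scaled TPM plus 0.5 for 3 pairs of members across 20 libraries (points, coloured by group). Ier2 rises with Junb (r = 0.85), Atf3 rises with Jun (r = 0.75), and Fos falls with Ier3 (r = -0.54).

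Single livers stood out across many members. With each gene standardised over the 20 libraries, the mean over the 9 members was highest in KYDS 4 (1.12 SD), KYDS 5 (1.05 SD) and CON 4 (0.97 SD), and lowest in CON 3 (-1.14 SD) and BGZ_L 4 (-0.96 SD). KYDS 4 held the highest value of 4 members, Fos, Jun, Egr1 and Atf3, and CON 4 that of Junb and Zfp36. KYDS+BGZ_L 2 held the highest value of Ier2 and Btg2. CON 3 held the lowest value of 5 members. These livers differed in mitochondrial share, which was 68.9% in KYDS 4, the highest of the KYDS libraries, 35.2% in KYDS 5, and 68.5% in CON 4, below 3 of the other CON libraries.

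**Figure D5:**
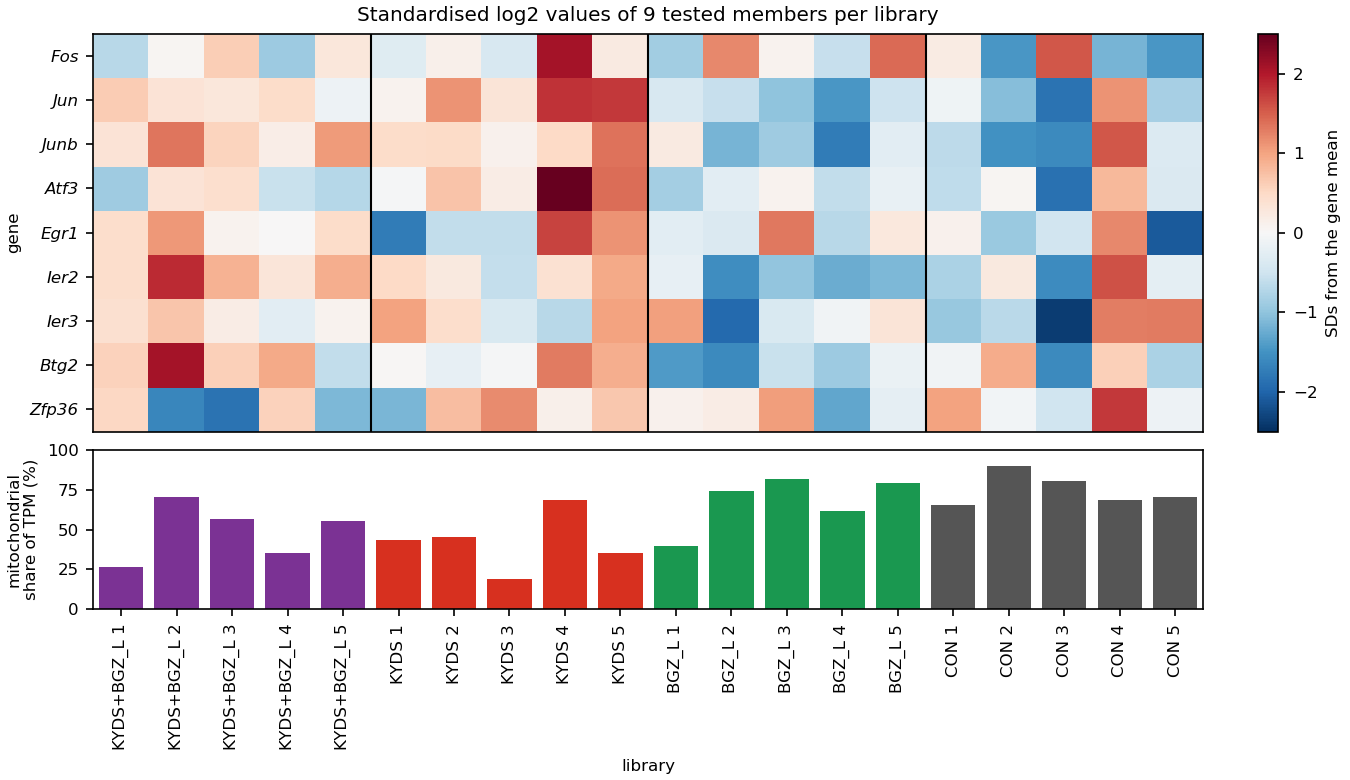
Standardised log2 values (colour, in SDs from the mean of the gene over 20 libraries) of the 9 members tested, with the mitochondrial share of TPM in percent below (bars), by library. KYDS 4, KYDS 5 and CON 4 are high for most members and CON 3 is low for most, while Fos and Zfp36 have the lowest median correlations with the other members (-0.08 and 0.02).

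Likeness to the members was measured by Pearson's r over 20 libraries between each other gene and the mean standardised value of the 9 members. It covered 6832 genes with a mean log2 value of at least 1, and genes with provisional or clone-style names were left out. The 6 closest were Pxmp4 (r = 0.84), Dmac2 (0.84), Fastk (0.82), Ccn1 (0.80), Sesn2 (0.80) and Arfgap2 (0.79). After centring in each group they were Pxmp4 (0.80), Igfbp1 (0.77), Tns1 (0.76), Dmac2 (0.75), Fastk (0.73) and Ccn1 (0.71). Ccn1 encodes a matricellular protein and is itself an immediate-early gene.

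Of 7 other AP-1 subunits and partners tested, 0 were higher and 1 was lower in KYDS against CON, where 3.02% of all genes were lower. In KYDS+BGZ_L against BGZ_L, 0 were higher and 3 were lower, where 8.55% of all genes were lower. Their median log2 fold changes were -0.20 and -0.07. Maff, a small MAF protein that can pair with AP-1 factors, averaged 0.519 ± 0.254 scaled TPM in KYDS and 1.41 ± 0.471 in CON livers (SD, n = 5 each). It averaged 0.421 ± 0.237 in KYDS+BGZ_L and 1.35 ± 0.626 in BGZ_L livers.

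Maff passed in both comparisons, with log2 fold changes of -0.91 ± 0.26 and -0.98 ± 0.26 (limma, adjusted p = 0.0467 and 0.016), and lost the first call in 12 of 20 fits with 1 library left out (0.118 without KYDS 3) and the second in 1 (0.0565 without KYDS+BGZ_L 4). Without scaling its fold changes were -0.17 and -0.52 and neither passed (adjusted p = 0.71 and 0.307). Jdp2, a repressor that pairs with Jun, averaged 0.726 ± 0.192 scaled TPM in KYDS+BGZ_L and 3.76 ± 3.28 in BGZ_L livers, without overlap (-1.50 ± 0.38, adjusted p = 0.0115). Fosl2, which encodes the FOS relative Fra-2, averaged 0.95 ± 0.637 scaled TPM in KYDS+BGZ_L and 6.77 ± 7.34 in BGZ_L livers (-1.95 ± 0.55, adjusted p = 0.0203), and lost the call in 3 fits (0.0634 without KYDS+BGZ_L 4). Of the EGR and NR4A factors and NAB corepressors, 3 were tested and in each of the 5 comparisons 0 passed (limma), with 0 at an unadjusted p under 0.05.

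Of 30 other immediate-early genes tested, 2 were higher and 0 lower in KYDS against CON, a share near the 6.27% of all genes called. Csrnp1, which encodes a nuclear protein of the immediate-early class, averaged 3.66 ± 1.41 scaled TPM in KYDS and 0.842 ± 0.717 in CON livers (1.73 ± 0.36, limma, adjusted p = 0.012). Errfi1, an inhibitor of the EGF receptor, averaged 139.9 ± 29.3 scaled TPM in KYDS and 65.5 ± 39.9 in CON livers (1.29 ± 0.36, adjusted p = 0.0396, and 0.116 without CON 2). Its call was lost in 9 of 20 fits that left out 1 library. With the powder in both groups, Errfi1 averaged 42.4 ± 11.9 in KYDS+BGZ_L and 51.3 ± 17.2 in BGZ_L livers and did not pass. In that comparison 1 of the 30 was higher and 3 were lower, a share below the 17.4% of all genes called. Ier5, a relative of Ier2, averaged 4.10 ± 0.764 scaled TPM in KYDS+BGZ_L and 1.53 ± 0.475 in BGZ_L livers (1.19 ± 0.27, adjusted p = 0.00679), and passed whichever library was left out, but not when nuclear genes alone were rescaled (1.40, adjusted p = 0.0729).

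The lower ones were Trib1, a pseudokinase gene (-1.59 ± 0.46, limma, adjusted p = 0.0234), Zfp36l2, a relative of Zfp36 (-0.65 ± 0.20, adjusted p = 0.0328), and Klf2, which encodes a zinc finger factor (-1.10 ± 0.38, adjusted p = 0.0489). Each lost the call in some of the fits with 1 library left out, Trib1 in 3 (0.0712 without BGZ_L 3), Zfp36l2 in 5 (0.11 without KYDS+BGZ_L 4) and Klf2 in 13 (0.116 without BGZ_L 3). Without scaling, the fold changes were -0.95 for Trib1, -0.048 for Zfp36l2 and -0.43 for Klf2, and none of the 3 passed (limma, adjusted p = 0.18, 0.935 and 0.512). None of the 30 passed in KYDS+BGZ_L against KYDS (limma). An unadjusted p under 0.05 was held by 7 of the 30 and by 405 of all 11869 genes. Every KYDS+BGZ_L liver was lower for 5 of the 30 and higher for 0, against 0.977% and 0.388% of all genes. The median log2 fold change of the 30 was -0.26, and 8 were above 0. Errfi1 averaged 42.4 ± 11.9 scaled TPM in KYDS+BGZ_L and 139.9 ± 29.3 in KYDS livers, without overlap (-1.74 ± 0.36, adjusted p = 0.0632, from 0.0303 without CON 4 to 0.218 without KYDS 2). Klf10 had -0.86 ± 0.22 there, also without overlap (adjusted p = 0.218).

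Upstream of the members, 24 signalling and promoter factors were tested, and 2 were higher and 0 lower in KYDS against CON, 1 higher and 2 lower in KYDS+BGZ_L against BGZ_L. The first count is near the 6.27% of all genes called and the second below the 17.4%. Mapk9, which encodes the Jun kinase JNK2, averaged 17.5 ± 2.62 scaled TPM in KYDS and 7.13 ± 1.59 in CON livers, and 17.2 ± 2.36 in KYDS+BGZ_L and 7.09 ± 1.40 in BGZ_L livers. Neither pair of groups overlapped, and the log2 fold changes were 1.25 ± 0.20 and 1.23 ± 0.20 (limma, adjusted p = 0.00175 and 0.00128). Both calls passed whichever library was left out, and both were lost, at fold changes of 1.37 and 1.34, when nuclear genes alone were rescaled (adjusted p = 0.157 and 0.0701). Srf, which encodes serum response factor, averaged 1.75 ± 0.340 scaled TPM in KYDS and 0.655 ± 0.161 in CON livers (0.96 ± 0.19, adjusted p = 0.0108). This call was lost when nuclear genes alone were rescaled (1.29, limma, adjusted p = 0.183). With the powder in both groups, Srf averaged 1.62 ± 0.186 in KYDS+BGZ_L and 1.47 ± 0.507 in BGZ_L livers and did not pass.

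Atf2, a CREB-family factor that pairs with Jun (-0.85 ± 0.28, limma, adjusted p = 0.0388), and Rps6ka3, the kinase RSK2 (-1.22 ± 0.35, adjusted p = 0.0232), were lower in KYDS+BGZ_L against BGZ_L. They lost the call in 7 fits (0.0968 without KYDS+BGZ_L 4) and 3 fits (0.0771 without KYDS+BGZ_L 1) with 1 library left out. Without scaling neither passed, at -0.53 for Atf2 and -0.62 for Rps6ka3 (limma, adjusted p = 0.194 and 0.32). Of 5 feedback inhibitors of MAP kinases tested, 1 was higher and 0 lower in KYDS against CON, where 6.27% of all genes were called. This was Dusp1, a MAP kinase phosphatase induced by glucocorticoids. It averaged 53.3 ± 4.62 scaled TPM in KYDS and 14.3 ± 10.9 in CON livers, without overlap (2.15 ± 0.42, adjusted p = 0.00859), and 20.8 ± 8.15 in KYDS+BGZ_L and 9.65 ± 5.06 in BGZ_L livers (1.16 ± 0.42, adjusted p = 0.0601). In KYDS+BGZ_L against KYDS, 0 of the 5 passed. Dusp1 had a log2 fold change of -1.40 there (limma, adjusted p = 0.48). Every KYDS+BGZ_L liver was lower than any KYDS liver for Dusp1, as for 0.977% of all genes. With the nuclear to mitochondrial TPM ratio in the model, the KYDS against CON calls of all these genes were lost. The fold changes stayed near their values for Mapk9 (1.22, limma, adjusted p = 0.0617), Srf (1.08, 0.102), Dusp1 (1.85, 0.261) and Csrnp1 (1.59, 0.277). They moved further for Errfi1 (0.83, adjusted p = 0.738) and Maff (-0.59, 0.763). In KYDS+BGZ_L against BGZ_L the calls of all 8 lower genes were lost with that ratio in the model (adjusted p from 0.0563 for Jdp2 to 0.239 for Atf2), with nuclear genes alone rescaled (from 0.0747 for Jdp2 to 0.385 for Zfp36l2) and without scaling (from 0.0781 for Fosl2 to 0.935 for Zfp36l2).

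Markers of other cell types were read beside these results. The summed level of the 7 hepatocyte markers ran from 9285 to 45610 scaled TPM in KYDS+BGZ_L and from 5413 to 6368 in BGZ_L livers. Here 4 of 7 were higher and 0 lower, where 8.82% of all genes were higher and 8.55% lower. The sum ran from 6504 to 64228 in KYDS and from 5558 to 9623 in CON livers. There 2 of 7 were higher and 0 lower, where 3.25% of all genes were higher and 3.02% lower. The summed level of 6 neutrophil markers ran from 7.21 to 28.1 scaled TPM in KYDS+BGZ_L and from 0.0579 to 21.4 in BGZ_L livers. Of the 3 tested, 2 were higher there, S100a8 and S100a9, where 8.82% of all genes were higher. The other marker tested did not pass, and its log2 fold change was not above 0. The granule genes Ngp and Camp were listed at 0 in 12 and 9 of the 20 libraries. In KYDS against CON, 0 of the 3 passed and 2 were above 0. The sums there ran from 6.40 to 16.8 in KYDS and from 2.55 to 10.8 in CON livers.

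Of 8 Kupffer cell and macrophage markers, 1 was higher and 0 lower in each hydrocortisone comparison, Cd163, and of 6 stellate cell markers, 1 was higher and 0 lower in each, Pdgfrb. Among all genes, 3.25% were higher in KYDS against CON and 8.82% in KYDS+BGZ_L against BGZ_L. Of the stellate cell markers 1 of 6 was above 0 in each comparison, with median log2 fold changes of -0.64 in KYDS against CON and -0.59 in KYDS+BGZ_L against BGZ_L. Of the Kupffer cell and macrophage markers, 7 of 8 were above 0 in KYDS against CON (median 0.60) and 2 of 8 in KYDS+BGZ_L against BGZ_L (median -0.23). The summed Kupffer cell and macrophage markers ran from 41.0 to 132 scaled TPM in KYDS+BGZ_L, from 56.0 to 112 in KYDS, from 33.9 to 408 in BGZ_L and from 34.3 to 57.5 in CON livers. The summed stellate cell markers ran from 14.6 to 24.5 scaled TPM in KYDS+BGZ_L, from 10.3 to 22.6 in KYDS, from 10.01 to 20.6 in BGZ_L and from 7.98 to 21.3 in CON livers. None of the sinusoidal endothelial, cholangiocyte, lymphocyte, erythroid or mast cell markers tested passed in either hydrocortisone comparison (limma), with 2 at an unadjusted p under 0.05 in each. Of 10 heat shock genes, which respond to stress and handling, 0 passed in any of the 5 comparisons (limma). An unadjusted p under 0.05 was held by 4 of the 10 in KYDS+BGZ_L against BGZ_L and by 0 in KYDS against CON. Among all 11869 genes, 3831 had such a p in the first of these comparisons and 2856 in the second. The summed level of the heat shock genes ran from 302 to 649 scaled TPM in KYDS+BGZ_L, from 275 to 508 in KYDS, from 229 to 491 in BGZ_L and from 235 to 562 in CON livers. The part of these cell types, of the mitochondrial share and of the scaling factors in the differences of the members was not tested.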

How the data were processed

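RNA was sequenced from 20 rat livers in 4 groups of 5, and the labels gave group and replicate number. The protocols in the labels name Trizol, a DNase I step, TruSeq kits and paired reads, of which the authors used only the first. The table deposited by the authors is named as raw counts, but it holds TPM as judged from its values, with 2 decimals and library sums of 914343 to 983962. The builds GRCm38, mm10 and GRCm39 in the submitters' processing notes are mouse builds, whereas the identifiers are rat, and the aligner, counter and build behind the values are not given in any of the sources used here.

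TPM were scaled by an unweighted trimmed mean of log ratios (trimming 30% of ratios and 5% of levels at either end) against CON 1. The test covered 11869 genes that reached 0.5 scaled TPM in 5 or more libraries. Values were log2 of scaled TPM plus 0.5, which understates changes of low genes. One limma model of 4 group means gave 16 residual degrees of freedom, with a trended and robust prior. Comparisons were two-sided contrasts with Benjamini-Hochberg adjustment over the genes tested and a threshold of 0.05. The 95% intervals use its SE and residual degrees of freedom. Tools were R 4.3.3, limma 3.58.1, data.table (version 1.17.8), Python 3.11.15, pandas 2.3.3 and matplotlib 3.10.9. The method was tested on simulated data.

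The members and the gene lists were chosen with earlier results of these data known. Named were all 10 members and, from each other list, up to 6 genes per comparison that passed. Where none passed, up to 2 with the smallest p were chosen, of which some are given as counts only or left out. Same-numbered libraries were checked as pairs. Of 30 correlations between groups, 7 were above 0.1 (-0.459 to 0.335), so no block was used. No libraries were identical (highest correlation 0.959). No value column was left out. Alternatives were other scalings, filters, constants, priors, a block, a covariate, the groups of a comparison alone, and leaving out each library. Leaving out both libraries with the lowest scaling factors, and scaling against the mean profile, were chosen after seeing the data.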

Additional observations from a re-analysis of the deposited data

Results flagged for a closer look

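The 10 members in 4 groups formed 40 sets of 5 livers. In 5 sets, 1 liver had a gap to the next above the critical share of the range, 0.71 for 5 samples. That limit gives about 1 in 20 by chance for independent sets of normally spread values. Here the values were scaled TPM without a log and the 40 sets share the same 20 livers. The count of 5 can thus not be read against that rate. In all 5 sets this was the liver with the highest value. Atf3 was 8.20 scaled TPM in KYDS 4, with the next KYDS liver at 3.07. Fos was 2.80 scaled TPM in the same liver, with the next at 0.732. Junb was 51.3 scaled TPM in KYDS 5, with the next at 27.1, and 59.7 scaled TPM in CON 4, with the next CON liver at 14.4. Fosb was 0.417 scaled TPM in BGZ_L 5, with the next at 0.0206, a gene too low to be tested. No member passed the interaction test.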

How the results depend on the processing

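The read depth is unknown, and 5 livers per group with wide mitochondrial shares limit what can be shown. Genes called in KYDS against CON were 744, and 5933 without scaling, 92 with nuclear genes rescaled, 367 without a filter, 23 with the nuclear to mitochondrial covariate, 256 without the libraries of lowest scaling factor (CON 2 and BGZ_L 3) and 257 with 2 groups alone. The higher and lower calls there were 386 and 358, and 5867 and 66 without scaling, 75 and 17 with nuclear genes rescaled, 207 and 160 without a filter, and 19 and 4 with the covariate. Without scaling the median log2 fold change of all genes was 1.03 in KYDS against CON, 0.63 in KYDS+BGZ_L against BGZ_L, -0.36 in KYDS+BGZ_L against KYDS and -0.40 for the interaction. With nuclear genes rescaled it was 0.12, 0.11, -0.24 and, in BGZ_L against CON, -0.21. Members called in KYDS against CON were 1, and 9 without scaling, and 0 with nuclear genes rescaled, no filter, the replicate block, the covariate, the libraries of lowest factor left out, or 2 groups alone.

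For KYDS+BGZ_L against BGZ_L, 2062 genes were called, and 577 with nuclear genes rescaled (358 higher and 219 lower), 669 with the covariate and 1362 without the libraries of lowest factor. Members called were 3, and 0 with nuclear genes rescaled, and 1 with no filter, the replicate block, or the libraries of lowest factor left out. For KYDS+BGZ_L against KYDS, 15 genes were called, and 4 without scaling, 6 with nuclear genes rescaled and 3 with 2 groups alone. In BGZ_L against CON, 0 were called, and 1 with the covariate and 1 without the libraries of lowest factor. For the interaction, 3 were called, and 0 without scaling, 0 with nuclear genes rescaled and 1 without the libraries of lowest factor.

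Leaving out 1 library at a time gave 224 to 1075 genes and 0 to 3 members in KYDS against CON. It gave 1102 to 2517 genes and 1 to 4 members in KYDS+BGZ_L against BGZ_L. In KYDS+BGZ_L against KYDS it gave 6 to 19 genes, in BGZ_L against CON 0 to 3, and for the interaction 2 to 5, with 0 members in each. The replicate numbers did not pair the livers, since 2 of 20 libraries correlated best with their own number. Under the replicate block the adjusted p (limma) was 0.0506 for Jun in KYDS against CON, and 0.0546 for Junb and 0.0613 for Btg2 in KYDS+BGZ_L against BGZ_L, and Ier2 still passed.

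Signs of uncalled members turned. In KYDS against CON, Zfp36 had 1.22 without scaling (limma, adjusted p = 0.0488) and 0.033 with nuclear genes rescaled, and Ier3 -0.039 with the covariate. In KYDS+BGZ_L against BGZ_L, Fos had 0.045 and Zfp36 0.52 without scaling, and Fos 0.17 with the covariate. In KYDS+BGZ_L against KYDS, Junb had -0.31, Egr1 -0.017 and Btg2 -0.24 without scaling, Junb -0.14 and Btg2 -0.087 with nuclear genes rescaled, and Ier3 0.044 with the covariate and 0.0021 with 2 groups alone. In BGZ_L against CON, Ier3 had -0.20 with nuclear genes rescaled and -0.067 with the covariate, and Atf3 -0.011 with a constant of 1 and -0.0041 with 2 groups alone. For the interaction, Junb had -0.071 without scaling, Ier3 0.11 with the covariate and Egr1 0.35 without the libraries of lowest factor.

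With 1 library left out, signs turned over these ranges. In KYDS against CON they were -0.018 to 0.65 for Egr1 and -0.13 to 0.11 for Zfp36, and in KYDS+BGZ_L against BGZ_L -0.079 to 0.19 for Atf3. In KYDS+BGZ_L against KYDS they were -0.055 to 0.32 for Junb, -0.22 to 0.092 for Ier3 and -0.013 to 0.31 for Btg2. In BGZ_L against CON they were -0.51 to 0.15 for Jun, -0.56 to 0.27 for Junb, -0.33 to 0.36 for Ier3 and -0.27 to 0.28 for Atf3. For the interaction they were -0.15 to 0.68 for Junb, -0.37 to 0.31 for Egr1 and -0.40 to 0.29 for Ier3. The cause of these changes was not tested.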

Other observations

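Targets of p53, the stress-activated tumour suppressor that also induces Btg2, were read as a neighbouring group. Of 8 tested, 1 was higher and 0 lower in KYDS against CON, where 6.27% of all genes were called. In KYDS+BGZ_L against BGZ_L, 1 was higher and 0 lower, where 17.4% of all genes were called. Both counts are near those shares. Eda2r, a receptor gene, passed in the first with a log2 fold change of 2.26 ± 0.67 (limma, adjusted p = 0.0497, and 0.126 without KYDS 3). Its call was lost in 15 of 20 fits that left out 1 library. With the nuclear to mitochondrial TPM ratio in the model it had 0.78 (adjusted p = 0.905). Cdkn1a, the cell cycle inhibitor p21, passed in the second with 1.69 ± 0.45 (limma, adjusted p = 0.0155) and in all 20 such fits, but not when nuclear genes alone were rescaled (1.86, adjusted p = 0.0663). Cdkn1a had 1.92 ± 0.45 in KYDS+BGZ_L against KYDS (limma, adjusted p = 0.135). Srf had 0.74 ± 0.19 in BGZ_L against CON, where the groups did not overlap (limma, unadjusted p = 0.00109, adjusted p = 0.393).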
